A study of Mus musculus with 1 sample.

Results

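Heterotrimeric G proteins, the RGS proteins that switch them off, and the cyclases and phosphodiesterases that make and break cyclic AMP and cyclic GMP were read in parental RAW264.7 cells, a mouse macrophage-like line. A gene belonged to the set where its symbol in the array's annotation is that of a Gα, Gβ or Gγ subunit, a numbered RGS protein, an adenylyl cyclase (Adcy) or a cyclic nucleotide phosphodiesterase (Pde). This gave 85 genes with 98 probes, of 19321 named genes and 23473 gene probes on the array. Membership went by symbol and used no signal value. Pde7a, Rgs14 and Rgs21 fit the same pattern and were not analysed here, since no probe carried those names.

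The study concerns how this line takes up added peroxiredoxin, a peroxide-breaking enzyme, and sets parental cells against lines mutagenised with ENU, an alkylating agent, and sorted because they no longer take it up. Analysed here was a single one-colour array (n = 1) of the parental cells, grown as a line in RPMI-1640 with serum. The mutant lines were not analysed here and no comparison of lines was made. A single array has no spread between samples, no p-value is given, and the number of arrays limits precision throughout.

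G protein-coupled receptors signal by loading GTP onto a Gα subunit, which then parts from its Gβγ dimer, and both parts act on effectors. Gαs raises and Gαi lowers the cyclic AMP made by adenylyl cyclases, Gαq acts through phospholipase C beta, and Gα12 and Gα13 act on the cytoskeleton. RGS proteins speed GTP hydrolysis by Gα, and phosphodiesterases remove the cyclic nucleotide. In macrophages, chemokine and complement receptors signal mainly through Gαi, and a rise in cyclic AMP is known to dampen phagocytosis and cytokine release.

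Signals are spot medians in arbitrary units, with no background subtracted. The blank limit, which a gene passed if its highest probe exceeded it, is 22.98, the mean plus 2 SD of 2464 blank spots. A higher limit, 55.8, is the 95th percentile of 1221 olfactory, vomeronasal and taste receptor probes and is called the receptor limit. Probes respond unequally, so genes were read against these limits and not ranked against each other. Where a reading is low, a poor probe and a scarce transcript cannot be told apart. The macrophage label was borne out by its markers at the receptor limit: 9 of 10 passed it, against 42.7% of all named genes. Among these were Spi1 at 858, Csf1r at 642 and Fcgr1 at 1369. The blank limit was passed by 10 of 10, against 72.8% of all named genes. Mertk lay between the limits at 23.3, close to the blank limit. With 3 SD over the blanks as the limit, 9 of 10 passed. Of 51 measured markers of photoreceptors, neurons, olfactory and taste cells, muscle, lymphocytes and platelets, 25 exceeded the blank limit, or 49.0%. The receptor limit was passed by 2 of the 51, or 3.92%, and the markers ranged from 18.2 to 215.

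Of the 85 members, 64 passed the blank limit, or 75.3%, against 72.8% of all named genes. The receptor limit was passed by 29 members, or 34.1%, against 42.7% of all named genes. The remaining 35 members over the blank limit lay between both limits, and 21 were not over the blank limit. The median member read 32.3, against 40.1 over all named genes, in a range of 18.4 to 4093. The set as a whole thus passed the blank limit at a share near that of all genes. Within it the families differed in their counts: 3 of 5 Gβ genes, 6 of 12 Gγ genes and 7 of 16 Gα genes passed the receptor limit, as did 6 of 19 RGS genes, 3 of 10 adenylyl cyclases and 4 of 23 Pde genes. At the 99th percentile of the chemosensory probes, 146, the members that passed numbered 15 of 85, or 17.6%, against 27.5% of all named genes. Members over the receptor limit but not over 146 were Gnal, Gna11, Gna15, Gnaq, Gnb5, Gng8, Gngt2, Rgs3, Rgs8, Adcy2, Adcy6, Pde1b, Pde2a and Pde4b.

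**Figure D1:**
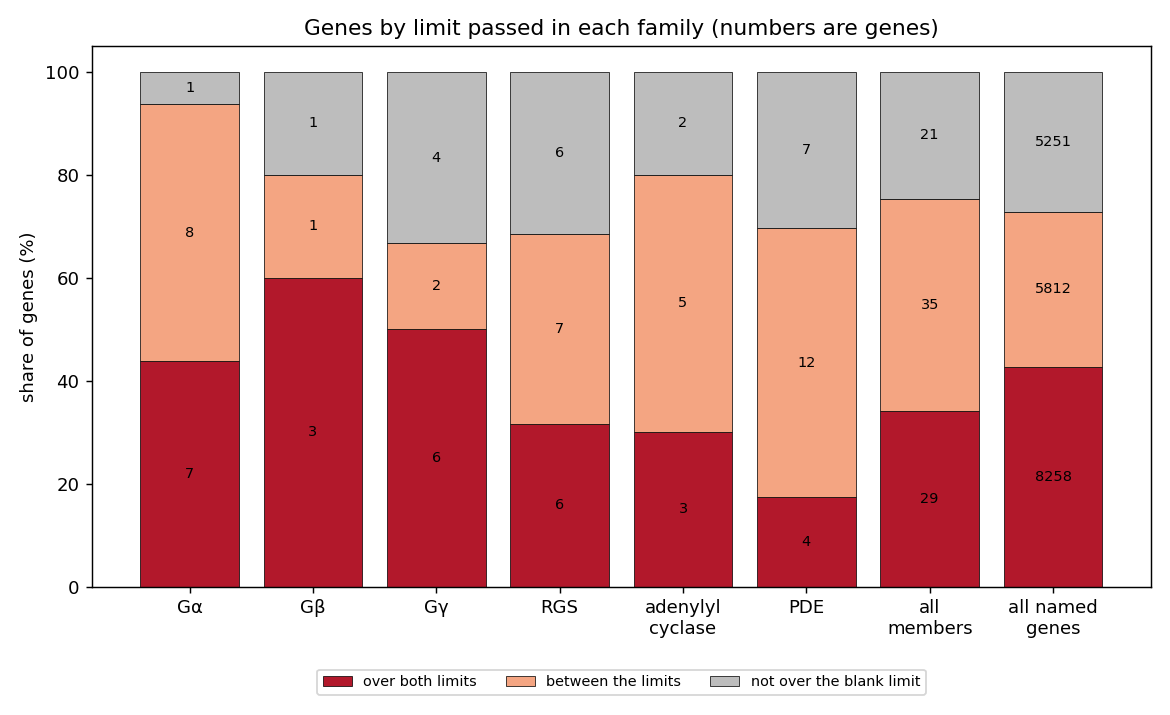
Share of genes in each family (vertical axis, %) that passed both limits, only the blank limit, or neither, for the 6 families, all 85 members and all 19321 named genes. Numbers in the bars are genes; 29 members passed both limits and 21 passed neither.

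**Figure D2:**
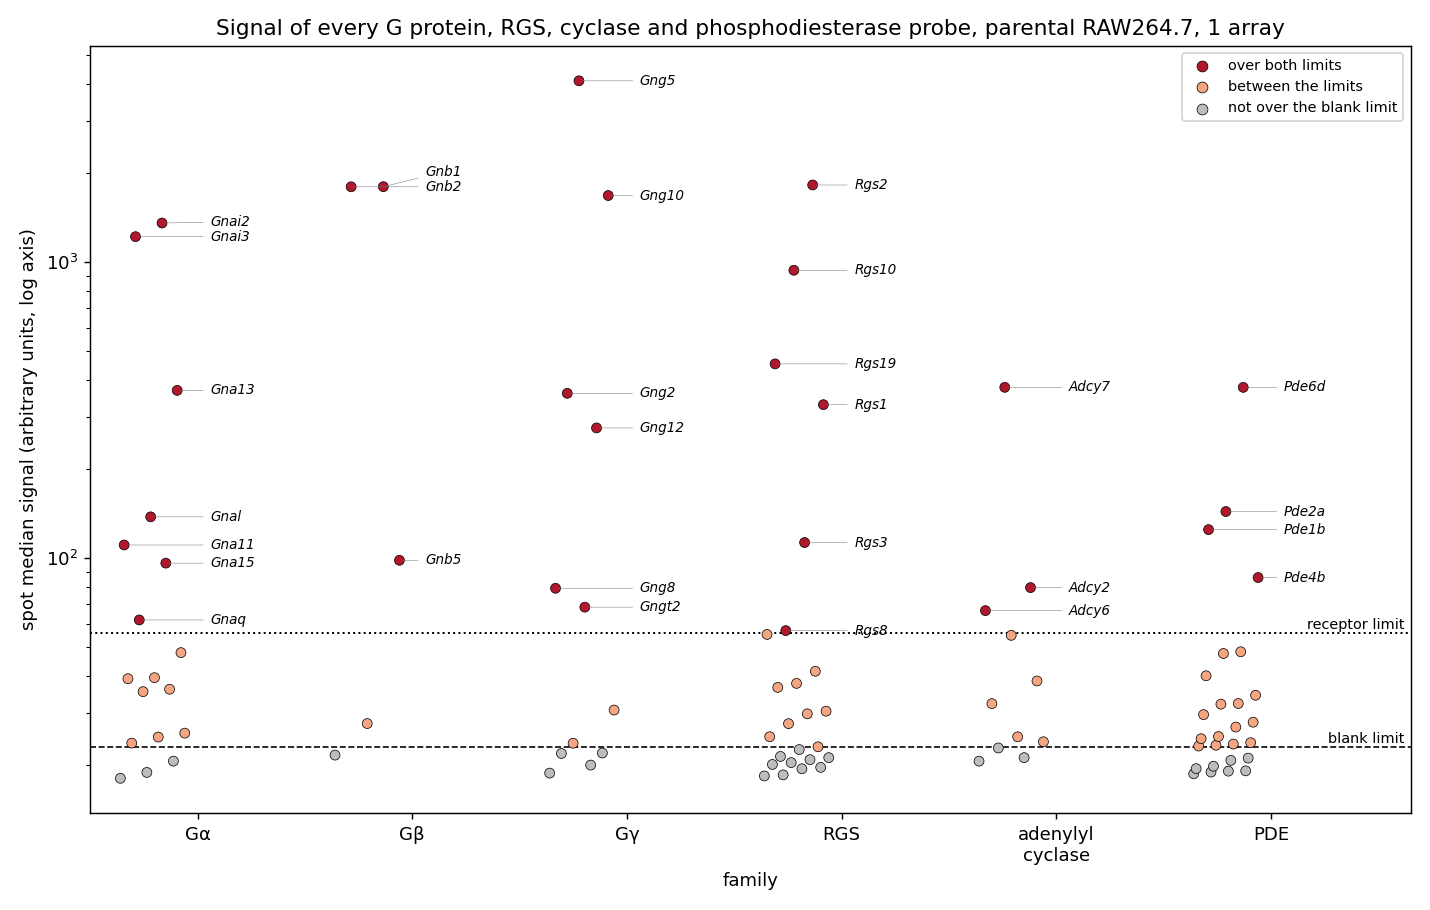
Spot median signal (log axis, arbitrary units) of each of the 98 member probes, by family, with the blank limit (22.98, dashed) and the receptor limit (55.8, dotted). Each point is 1 probe on 1 array, and names mark the 29 probes over both limits, from Rgs8 at 56.9 to Gng5 at 4093.

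Among Gα subunits, the inhibitory pair Gnai2 and Gnai3 stood far over both limits. Gnai2 (probe M300008321), which carries most chemokine receptor signalling in leukocytes, read 1354, or 58.9 times the blank limit. Gnai3 (probe M200004485), its close relative, read 1218, or 53.0 times that limit. The third inhibitory gene, Gnai1, lay between the limits at 24.9. Both highly read genes kept their calls in the 11 settings tried for the blank limit and in the 6 tried for the receptor limit. These counts include the main setting, and with 1 probe each the lowest-probe setting could not differ from it. The deposited table follows the same spot values, so it could hardly differ either.

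The other members of the Gi/o class were at most between the limits. Gnao1, which encodes the main Gα of neurons, read 36.1. The transducins of rod and cone photoreceptors, Gnat1 and Gnat2, read 23.7 and 39.1, and Gnat3, the gustducin of taste cells, read 35.4. Gnaz, which encodes the toxin-resistant Gαz of neurons and platelets, was not over the blank limit, reading 18.9. In this class 7 of 8 genes exceeded the blank limit, or 87.5%, and 2 of these the receptor limit, or 25.0%. For all named genes these shares were 72.8% and 42.7%.

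In the Gq class, 3 of 4 genes passed the receptor limit, against 42.7% of all named genes, and 0 passed 146. Gna15, a subunit of blood cells that couples to many receptors, read 96.1. Gna11 read 111 and Gnaq 61.8, both genes of wide expression. Gna14 lay between the limits at 25.6. In the G12 class, Gna13 (probe M300002274) read 368, or 6.60 times the receptor limit, and Gna12 lay between the limits at 47.9.

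Readings for the stimulatory class depended on the probe. Gnas encodes Gαs, which activates adenylyl cyclase in nearly every tissue, yet its probes read 39.4 and 20.6, so that 1 lay between the limits and the other was not over the blank limit. Gnal, the Gα of olfactory neurons and striatum, read 138 on 1 probe and 18.0 on the other. Of 7 measured markers of olfactory and taste cells, 4 exceeded the blank limit, or 57.1%, against 72.8% of all named genes. The receptor limit was reached by 0 of 7, against 42.7%, and Omp, the olfactory marker protein, read 30.5. Which transcripts of Gnas and Gnal these probes read was not tested.

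Gβ and Gγ subunits form the obligate dimer. Gnb1 (probe M200000883) read 1796, or 78.2 times the blank limit, and Gnb2 (probe M200006860) read 1795, or 78.1 times. Gnb5, which pairs with RGS proteins of the R7 class in place of a Gγ, read 98.3, while Gnb4 lay between the limits at 27.6. Gnb3, the Gβ of cone photoreceptors, did not exceed the blank limit, at 21.6.

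Of 12 Gγ genes, 6 passed the receptor limit, against 42.7% of all named genes. With 2 more, 8 of the 12 passed the blank limit, against 72.8%. Gng5 (probe M400003603) read 4093, Gng10 read 1677, Gng2 read 360 and Gng12 read 275. These are subunits of wide expression, and all 4 also passed the limit of 146. Gng8, known from olfactory and vomeronasal neurons, read 79.1, and Gngt2, the Gγ of cones, read 68.3. Gng3, a neuronal subunit, read 30.7 and Gng11 read 23.7, both between the limits. The 4 genes at blank level, that is not over the blank limit, were Gng4 at 19.99, Gng7 at 21.9, Gng13 at 18.8 and the rod subunit Gngt1 at 22.0.

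RGS proteins of the R4 class are small and act on Gαi and Gαq. Rgs2 (probe M200005916), which favours Gαq and also restrains adenylyl cyclase, read 1820, or 79.2 times the blank limit. Rgs1, a lymphoid and myeloid gene known to limit chemokine responses, read 330. Rgs18, a gene of platelets and myeloid cells, lay between the limits at 41.4, and so did Rgs16, an inducible gene, at 24.9. The germinal centre gene Rgs13 at 18.4, the neuronal gene Rgs4 at 21.2 and the pericyte gene Rgs5 at 22.6 stayed at blank level. In this class 6 of 9 measured genes exceeded the blank limit, or 66.7%, and 4 of these the receptor limit, or 44.4%. Both shares lay near the 72.8% and 42.7% of all named genes.

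The other R4 genes over the receptor limit were so on 1 probe each. The 4 probes of Rgs3 read 113, 55.2, 37.7 and 20.4, and thus fell on every side of both limits. Rgs8, a gene of cerebellar neurons, read 56.9 on 1 probe and 18.5 on the other. Of 10 neuron markers, 6 exceeded the blank limit, or 60.0%, against 72.8% of all named genes. The receptor limit was reached by 0 of 10, against 42.7%. Tubb3 at 41.3 and Snap25 at 33.0 lay between the limits, and Syt1 at 18.3 and Stmn2 at 22.1 were not over the blank limit.

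Outside the R4 class, Rgs10 and Rgs19 were over both limits. Rgs10 (probe M200003655), known as a restraint on inflammatory activation of macrophages and microglia, read 938. Rgs19, also called GAIP, a regulator of Gαi on membranes, read 453. Both passed in every setting tried, though with 1 probe each the lowest-probe and deposited-table settings could hardly differ from the main one. Their class mates did not pass the receptor limit: Rgs12 read 29.8, while Rgs17 at 21.4 and Rgs20 at 19.6 stayed at blank level. In the R7 class, which serves neurons and photoreceptors, 0 of 4 genes passed the receptor limit, against 42.7% of all named genes. Rgs11 read 36.6, Rgs9 27.6 and Rgs6 23.0 on the higher of its probes, and both probes of Rgs7 stayed at blank level, at 20.1 and 19.4. Of the membrane anchors of this class, Rgs7bp read 21.7 and Rgs9bp 24.8. Rgs22 lay between the limits at 30.4.

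Among adenylyl cyclases, Adcy7 was the one far over the receptor limit. Adcy7 (probe M400001396), a cyclase of blood cells that Gβγ and Gα13 can enhance, read 377, or 6.76 times the receptor limit and 16.4 times the blank limit. Adcy2, of the same Gβγ-stimulated class and mainly neuronal, read 79.5, and Adcy4 lay between the limits at 24.9. Adcy6, which calcium and Gαi inhibit, read 66.4 on 1 probe and 20.6 on the other, and its class mate Adcy5 read 23.97.

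The calcium-stimulated cyclases stayed under the receptor limit. Adcy3 lay just under it at 54.8, and the neuronal genes Adcy1 and Adcy8 stayed at blank level, at 21.2 and 22.8. Adcy9, a widely expressed cyclase that forskolin activates poorly, read 38.4, and Adcy10, the soluble cyclase that bicarbonate stimulates, read 32.2. In all, 8 of 10 cyclases exceeded the blank limit, against 72.8% of all named genes, and 3 exceeded the receptor limit, against 42.7%.

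Of 23 Pde genes, 4 passed the receptor limit, or 17.4%, against 42.7% of all named genes: the enzyme genes Pde1b, Pde2a and Pde4b, and Pde6d, whose product is no phosphodiesterase. At the blank limit 16 of 23 passed, or 69.6%, a share near the 72.8% of all named genes. Of the cyclic AMP-specific enzymes, Pde4b (probe M400001091), known for its part in inflammatory responses of myeloid cells, read 85.9. Pde4a read 32.3 and 24.95 on its probes, and Pde4d 27.9 and 24.5. Pde8b, at 34.4 and 29.6, also lay between the limits, as did Pde8a at 23.2. Pde4c at 19.8 and Pde7b at 18.7 stayed at blank level.

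Of the enzymes that take both cyclic nucleotides, 2 of 8 passed the receptor limit, or 25.0%, against 42.7% of all named genes. Pde2a (probe M200015288), which cyclic GMP stimulates, read 144, and Pde1b (probe M200000021), which calcium and calmodulin stimulate, read 125. Pde3b, which cyclic GMP inhibits, read 40.0, Pde10a read 26.9 and Pde11a 23.5. Pde1a, Pde1c and Pde3a read 19.1, 18.9 and 20.7 and were not over the blank limit.

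The cyclic GMP-specific enzymes Pde9a, at 48.3, and Pde5a, at 32.1 and 19.1 on its probes, did not pass the receptor limit. Pde6d (probe M300004999), by contrast, read 377, or 16.4 times the blank limit. Its product is a carrier for prenylated proteins, found widely, that was first known as a subunit of the rod enzyme. The genes of the photoreceptor enzyme itself stayed under the receptor limit: the catalytic genes Pde6a, Pde6b and Pde6c read 21.1, 23.8 and 19.4, and the inhibitory genes Pde6g and Pde6h read 47.6 and 23.3. Of 15 measured photoreceptor markers, 7 exceeded the blank limit, or 46.7%, and 2 of these the receptor limit, or 13.3%. Over all named genes the shares were 72.8% and 42.7%. The 2 were Guca1a at 215 and Cngb1 at 105 on 1 probe and 28.0 on the other. The markers Rcvrn, Crx and Nrl read 19.6, 21.3 and 19.4, at blank level.

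Downstream of cyclic AMP, the list of effector genes also holds genes for inhibitors of protein kinase A. Of its 16 measured genes, 15 exceeded the blank limit, or 93.8%, against 72.8% of all named genes. The receptor limit was passed by 10, or 62.5%, against 42.7%, and 146 by 6, against 27.5%. The inhibitor genes Pkig and Pkib are among both the 10 and the 6. For protein kinase A, the catalytic genes Prkaca and Prkacb read 64.3 and 64.4, and the regulatory genes Prkar1a, Prkar2a and Prkar2b read 599, 213 and 116. The kinase inhibitor genes Pkig and Pkib read 462 and 197, and Pkia did not exceed the blank limit, at 19.2. The transcription factor gene Creb1 read 297 and 45.6 on its probes and Atf1 read 155. Rapgef3, which encodes the exchange factor Epac1, lay between the limits at 28.1. Of 12 A-kinase anchors, 10 exceeded the blank limit and 6 of them the receptor limit, among them Akap10 at 374 and Akap8 at 303, the 2 that passed 146.

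On the cyclic GMP side, 8 of 12 measured guanylyl cyclases and cyclic GMP kinases exceeded the blank limit, or 66.7%, a share near the 72.8% of all named genes. The receptor limit was reached by 0 of 12, against 42.7% of all named genes. The nitric oxide-sensitive cyclase genes Gucy1a1 and Gucy1b1 read 21.8 and 22.0 and were not over the blank limit, nor was the natriuretic peptide receptor gene Npr1 at 21.1. The kinase gene Prkg1 read 26.0. The list's median was 27.3, against 40.1 over all named genes.

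Among genes for Gi-coupled receptors, 10 of 14 measured exceeded the blank limit, or 71.4%, and 5 of these the receptor limit, or 35.7%, against 72.8% and 42.7% of all named genes. The 5 were Cx3cr1 at 1374, Gpr84 at 430, C3ar1 at 98.5, Cxcr4 at 75.5 and 62.3, and S1pr1 at 58.1, of which Cx3cr1 and Gpr84 passed 146. The complement and chemokine receptor genes C5ar1 at 48.7 and Ccr2 at 33.3 lay between the limits, and Ccr1 at 18.8, P2ry12 and P2ry13 at 20.5 each and Ltb4r1 at 21.7 stayed at blank level. Of 8 measured genes for Gs-coupled receptors, 5 exceeded the blank limit, or 62.5%, and 2 of these the receptor limit, or 25.0%, with 0 over 146. The 2 were the prostaglandin E receptor gene Ptger4 at 69.8 and the bile acid receptor gene Gpbar1 at 68.1. The arrestin genes, whose products uncouple active receptors, read 425 for Arrb2 and 391 and 31.6 for the probes of Arrb1. The receptor kinase gene Grk6 read 76.9, and Grk5 lay between the limits at 47.2. Of 8 chaperones and modulators of Gα and Gβγ, 4 passed the receptor limit, among them Pdcl at 362, Gpsm3 at 169 and Gpsm2 at 165. Among 8 effectors of Gq and G12, 3 passed the receptor limit, or 37.5%, against 42.7% of all named genes. These were Plcb4 at 310 and 78.4, Arhgef1, whose product Gα13 binds, at 111 and Plcb2 at 97.8.

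**Figure D3:**
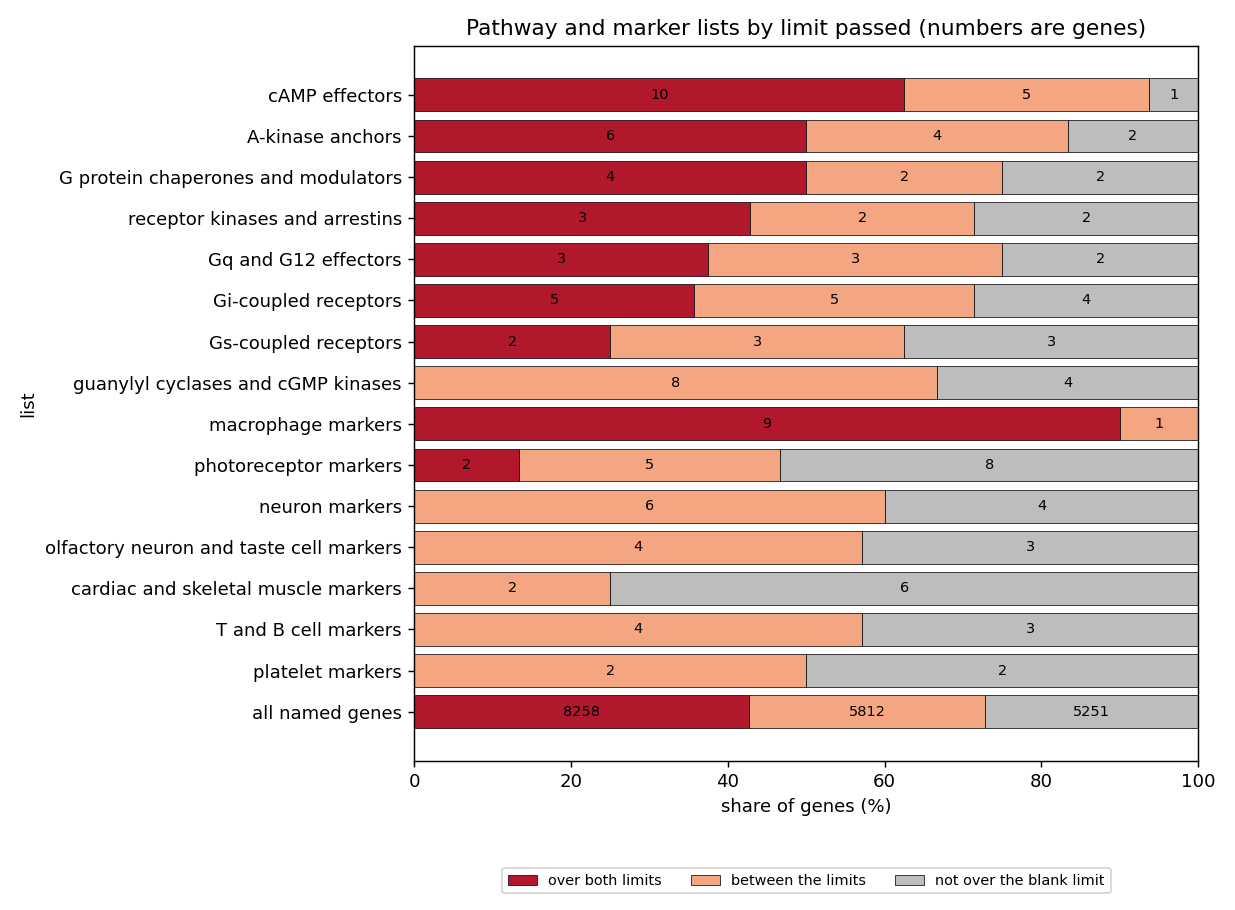
Share of measured genes (horizontal axis, %) in 8 pathway lists, 7 marker lists and all named genes that passed both limits, only the blank limit, or neither. Numbers in the bars are genes. In the cyclic AMP effector list, which includes kinase inhibitor genes, 10 of 16 passed both. Of guanylyl cyclases and cyclic GMP kinases, 0 of 12 did.

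Many of these genes are neighbours in the mouse genome, several as tandem copies, and some neighbours fell on different sides of the receptor limit. In the RefSeq gene table of assembly GRCm38.p6, used here for gene order, 10 measured pairs of members had no other protein-coding gene between them, and in an 11th pair, Gnai2 and Gnat1 on chromosome 9, the genes had 1 between them. Of these 11 pairs, 1 had both genes over the receptor limit, 7 had 1 gene and 3 had 0. The pair with both was Gna11 and Gna15 on chromosome 10. On chromosome 3, Gnai3 read 1218 beside Gnat2 at 39.1, and on chromosome 19 Gnaq read 61.8 beside Gna14 at 25.6. On chromosome 1, Rgs13 at 18.4 lay between Rgs2 at 1820 and Rgs1 at 330. Rgs13 belongs to 2 pairs, and Rgs8, which passed on 1 of its probes, to another. The pairs were drawn up after the values had been seen, and nothing is read from their number.

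**Figure D4:**
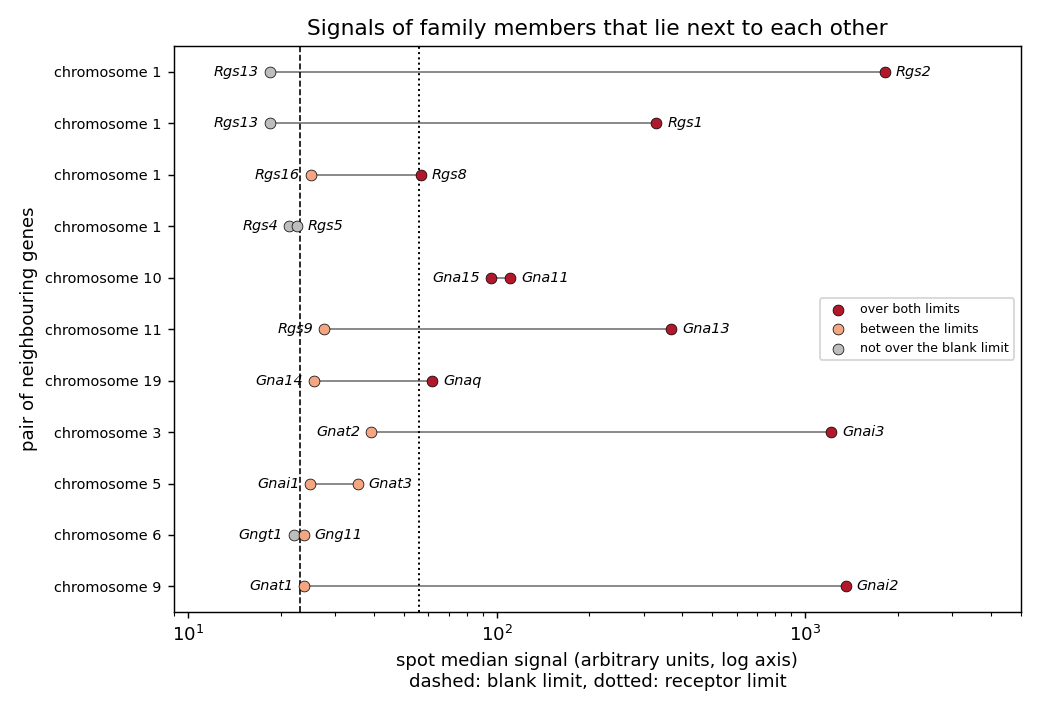
Spot median signal (log axis, arbitrary units) of the 11 pairs of neighbouring members, each line a pair and each point a gene's highest probe, coloured by the limits it passed. In 7 of 11 pairs 1 gene passed the receptor limit (dotted) and the other did not.

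Promoters are shown for a pair of neighbours that differed in call, Rgs2 and Rgs13, and for the pair in which both passed the receptor limit, Gna11 and Gna15. Each line gives the 250 bases before the start of transcription, 5′ to 3′ on the gene's own strand, from RefSeq on GRCm38.p6, with the dinucleotide CG in capitals. All 4 lie on the minus strand, Rgs2 at chr1:144004150-144004399, Rgs13 at chr1:144177373-144177622, Gna11 at chr10:81545163-81545412 and Gna15 at chr10:81524226-81524475.
Rgs2: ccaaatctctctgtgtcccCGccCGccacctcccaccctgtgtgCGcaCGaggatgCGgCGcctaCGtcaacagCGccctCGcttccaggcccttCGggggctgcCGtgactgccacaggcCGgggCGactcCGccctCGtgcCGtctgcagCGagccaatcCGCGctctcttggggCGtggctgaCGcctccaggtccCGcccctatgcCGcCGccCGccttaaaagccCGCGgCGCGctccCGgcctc
Rgs13: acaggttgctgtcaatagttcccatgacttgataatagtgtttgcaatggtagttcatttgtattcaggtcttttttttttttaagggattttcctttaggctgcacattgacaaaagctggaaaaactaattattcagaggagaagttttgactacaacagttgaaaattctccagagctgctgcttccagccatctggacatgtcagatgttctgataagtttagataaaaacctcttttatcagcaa
Gna11: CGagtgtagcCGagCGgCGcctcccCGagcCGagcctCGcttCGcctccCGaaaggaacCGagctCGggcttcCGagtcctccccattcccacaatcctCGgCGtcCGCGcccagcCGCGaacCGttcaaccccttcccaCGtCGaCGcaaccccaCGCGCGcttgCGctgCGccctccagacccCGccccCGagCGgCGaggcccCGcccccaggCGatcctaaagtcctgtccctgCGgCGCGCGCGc
Gna15: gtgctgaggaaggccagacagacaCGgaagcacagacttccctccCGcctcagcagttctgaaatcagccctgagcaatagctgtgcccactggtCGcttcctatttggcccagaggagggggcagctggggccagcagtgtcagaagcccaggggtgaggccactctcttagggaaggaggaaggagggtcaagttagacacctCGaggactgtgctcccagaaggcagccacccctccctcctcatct

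The window of Rgs2 held 30 CG dinucleotides and that of Rgs13 held 0. Gna11 held 38 and Gna15 held 4, although both genes passed both limits. Gnai3 held 18 and its neighbour Gnat2 held 5, while Gnai1 held 43 and Gnat3 held 2 with both genes between the limits. A window was found for 64 of the 85 members, and for genes with several starts the highest count was taken. The median was 18.5 over 24 members that passed both limits, 17.5 over 26 between them and 11.5 over 14 not over the blank limit. Over all named genes the medians for the same classes were 17, 10 and 5, from 6618, 4494 and 4047 genes. Among members with 1 start the medians were 20.5, 14.5 and 10, from 16, 20 and 9 genes. The full cyclic AMP response element, TGACGTCA, was in 0 of the 64 members' windows and in 2.37% of those of all 15159 named genes with one. Its half-site, TGACG on either strand, which the full element contains, was in 15 of 64, or 23.4%, against 24.3% of all named genes. Among genes with 1 start it was in 6 of 45 members, or 13.3%, against 21.5% of all named genes. These are descriptions of letters in a short window and say nothing of the factor.

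Within the set, 11 genes had several probes, and in 7 of them the probes fell on different sides of a limit. These were Adcy6, Gnal, Gnas, Pde5a, Rgs3, Rgs6 and Rgs8, and the highest probe exceeded the lowest by a median factor of 1.68 over the 11 genes. The authors' deposited table of processed intensity gave a value for 69 of the 98 member probes, which were the probes over the blank limit.

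Local background moved with the spots. Across the 98 member probes Spearman's rank correlation between spot signal and local background was 0.84, against 0.88 across all gene probes; the points share 1 array, and probes are not independent. For the 29 probes over both limits the background ranged from 6.03% to 68.1% of the spot, and it exceeded 50% in 11 of them. These included Gna11 (68.1%), Gnai2 (67.3%), Pde4b (67.2%), Adcy2 (66.5%), Gna15 (62.5%), Gnb1 (60.5%) and Rgs8 (60.2%). The others were Gng2 (57.8%), Gna13 (55.7%), the higher Adcy6 probe (54.3%) and Gng10 (54.1%). For the 40 probes between the limits it exceeded 50% in 38, with a median of 74.3% and a highest value of 99.5%, and for the 29 not over the blank limit it did so in 29. Gnai2 had a background of 912 and Gnai3 one of 117, so that the signal over local background was 442 for Gnai2 and 1101 for Gnai3. In the same way Gnb1 kept 709 over its background and Gnb2 kept 1601. For Rgs2 the background was 110, or 6.03% of the spot. The part of local background in these readings was not tested. Of the member probes over both limits, 6 touched a spot over 2000. These were Gng8 (brightest touching spot 14017), Rgs8 (4510), Rgs10 (4459), Gng12 (3171) and the highest probes of Gnal (2308) and Rgs3 (2117). Of the chemosensory receptor probes that touched a spot over 2000, 14 of 269, or 5.20%, passed the receptor limit, against 47 of 952, or 4.94%, of those that did not. The limit was drawn from these same probes, so the share passing overall was fixed in advance. Whether a bright neighbour raised a member's reading was not tested.

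**Figure D5:**
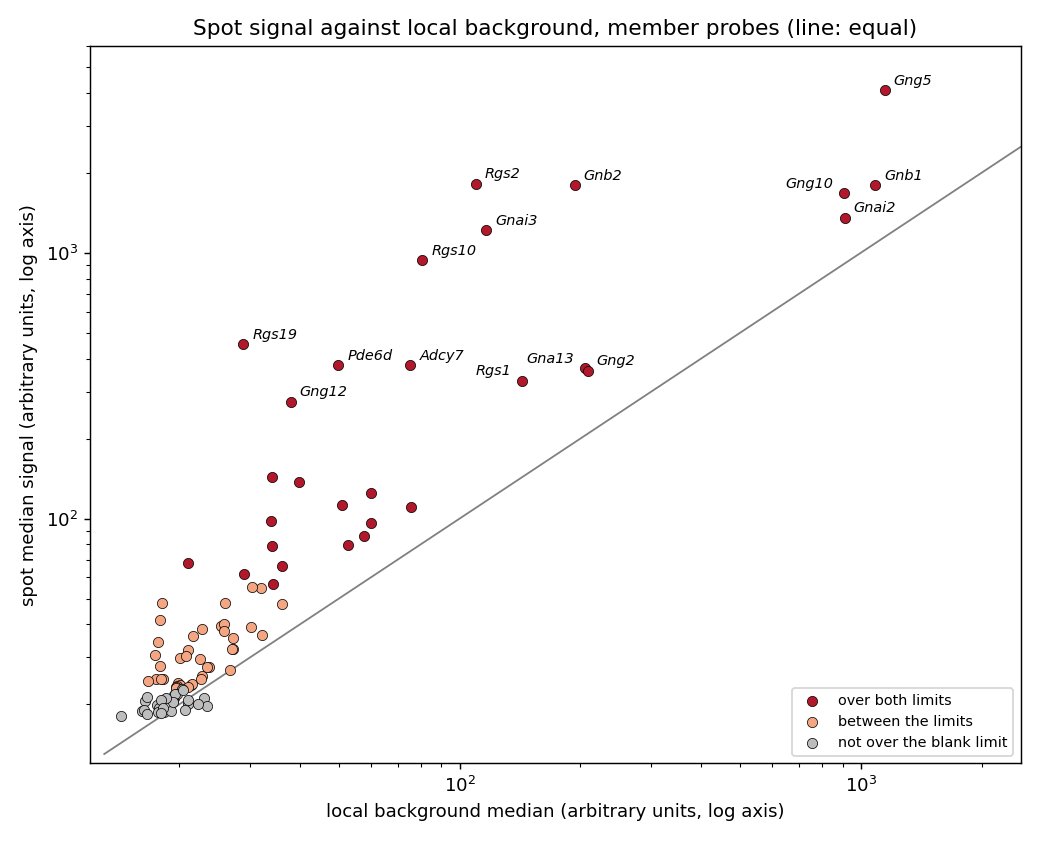
Spot median signal against local background median (both log axes, arbitrary units) for the 98 member probes, coloured by the limits passed; the grey line marks equal values. Gnai2, Gnb1, Gng10 and Gng5 have local backgrounds from 908 to 1147, and Gnai3, Gnb2 and Rgs2 lie at 110 to 193.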

How the data were processed

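One array of parental cells was read. Per the labels' protocols, total RNA was amplified to amino allyl RNA and coupled to Cy5. Per the file headers, the deposited scanner output lists the spot and local background median intensity of 27456 spots scanned at 3 gains, of which 0 carried a flag other than OK. The headers also give straight-line fits between gains, with a tool name not given in the sources used here. A table of processed intensity was deposited by the authors too; set against the spots, its values follow the spot median minus the blank mean, times 0.486 (SD 0.0004 over the 2987 probes with values over 200), with the 6784 probes at 22.97 or lower left empty. Its scale and its treatment of low values were found from the values, and why its median is 25 stays unknown.

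Spots of a probe were averaged and a gene takes its highest probe. The blank limit is the mean plus 2 SD of the blanks with 5% left out at each end, and its calculation was tested on simulated data. For the receptor limit the 95th percentile of 1221 chemosensory probes was taken. Symbols came from the platform annotation, updated through gene identifiers to RefSeq (GRCm38.p6), where all 85 members matched. Background correction by normexp used limma 3.58.1 with an offset of 50, and counts and figures used Python 3.11.15.

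The members, the 15 lists and the limits were chosen with earlier results of these data known. Every member could be named; genes of the lists were named with their list, mainly those over the receptor limit and those not over the blank limit, and the choice among them was made after the values were seen. Neighbouring genes and promoters were examined after the values were seen. The alternatives were other blank and chemosensory cut-offs, untrimmed, own-block and negative-control blanks, the deposited table, local background subtraction, normexp and the lowest probe. No test was run, because 1 array allows none.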

Additional observations from a re-analysis of the deposited data

How the results depend on the processing

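With 1 array there is no replicate to leave out, and no paired analysis was possible because there is 1 sample. The members over the blank limit numbered 49 to 68 of 85 in the 10 alternatives, against 64 as reported; the low end came from normexp and from subtracting local background, where 57.6% of members and 63.2% of all named genes passed. Family counts over the blank limit stayed within 1.5 times. At the receptor limit the count was 25 to 34 of 85 in 4 alternatives and 15 with the 99th percentile in place of the 95th, where Gα genes stood at 3, adenylyl cyclases at 1 and Pde genes at 1 (Pde6d); a higher limit calls fewer genes by its construction. The median member read 6 in the deposited table, which has another scale. With the 99th percentile the lists over the receptor limit fell to 6 of 16 for cyclic AMP effectors, 2 of 12 for A-kinase anchors, 2 of 14 and 0 of 8 for Gi- and Gs-coupled receptors, and 1 of 8 for Gq and G12 effectors, which stood at 6 with the 90th. After normexp or local background subtraction 2 of 10 neuron markers and 0 of 7 olfactory and taste markers passed the blank limit.

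Of the 29 genes over both limits, 15 passed the receptor limit and 25 the blank limit in every setting. The settings include the main one, and for genes with 1 probe the lowest-probe setting repeats it. The log2 of signal over the 99th percentile was below 0 for Rgs8 (-1.36), Gnaq (-1.24), Adcy6 (-1.14), Gngt2 (-1.10), Gng8 (-0.88), Adcy2 (-0.88), Pde4b (-0.76), Gna15 (-0.60), Gnb5 (-0.57), Gna11 (-0.40), Rgs3 (-0.37), Pde1b (-0.23), Gnal (-0.084) and Pde2a (-0.024). With the lowest probe it was below 0 for Gnal (-0.35 at the blank limit and -1.63 at the receptor limit), Rgs8 (-0.31 and -1.59), Rgs3 (-0.17 and -1.45) and Adcy6 (-0.16 and -1.44). With normexp, Rgs8 (-0.074) and Adcy2 (-0.006) were below the receptor limit of that setting and Gna12 was above it; the cause was not tested. Of the 35 genes between the limits, 18 passed the blank limit in every setting, and of the 21 not over it, 17 passed it in none. Readings near 22.98 are limited by the blanks' SD of 1.18, and members within that distance of the limit have no settled call. Under the limit these are Gng7, Gngt1, Rgs5 and Adcy8, described above as at blank level. Over it they are Adcy5, Gnat1, Gng11, Pde11a, Pde6b, Pde6h, Pde8a and Rgs6. Some genes farther over the limit also lost their call in a setting. Adcy10, Gna14, Gnb4, Pde10a, Rgs11, Rgs16 and Rgs9 passed the blank limit in 9 of 11 settings, and Gnas and Pde5a in 10 of 11.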
